A study of Mus musculus with 8 samples.

Results

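The genes described here are 30 genes of cholesterol synthesis, uptake and efflux, in primary hepatocytes of p16 knockout and p16 wild type mice. The list was formed by gene function. It and the lists of other genes below were chosen with earlier results of these data known. Of the 30, 27 were measured by a row of the deposited array table that names that gene alone, out of 22180 genes so measured. Acat2 and Nr1h2 had no such row, and the row for Idi1 names a further gene, so these 3 were not analysed here. Where a gene had several rows, the row of highest mean over the 8 arrays was used. All 27 passed a filter on dim rows that left 15380 genes for testing. The hepatocytes, the metabolic cells of the liver, were freed by collagenase perfusion from p16-/- mice (4 samples) and from their p16+/+ littermates (4 samples), each with 1 array. Both groups shared the same culture: attachment overnight in Williams E with insulin (100 nM), dexamethasone (25 nM) and 10% serum, a switch at 16 h to DMEM with 1 mM glucose and 0.1% BSA, and RNA harvest at 24 h. The labels call the samples biological replicates without saying which animals or preparations they came from, so a p-value speaks only of the spread among these 8 cultures, which may be technical. The labels used here name neither the age nor the sex of the mice, nor which part of the p16 gene is missing.

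Cholesterol is built from acetyl-CoA, first through mevalonate to farnesyl diphosphate, then through squalene and lanosterol to the finished sterol. The pathway is controlled at the level of transcription by SREBP2, a factor held in the endoplasmic reticulum as long as INSIG proteins bind its escort SCAP and released for processing when sterols run low. Surplus sterol activates LXR receptors, which switch on transporters that move cholesterol out of the cell and MYLIP, a ubiquitin ligase that removes lipoprotein receptors from the surface.

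Values are log2 expression after RMA, a method that corrects background, normalizes the probes of all arrays together and summarises them per row, and a change is the knockout mean minus the wild type mean on that scale. Array medians ran from 3.76 to 3.88, and any pair of arrays correlated at 0.985 to 0.993 if they shared a genotype and at 0.973 to 0.983 if they did not. The row for Cdkn2a, the gene of p16, averaged 4.53 in both genotypes, with SDs of 0.28 (wild type) and 0.31 (knockout, n = 4 each), and since its probes may lie outside the deleted part it does not check the genotype. The hepatocyte gene Alb was bright in both groups, at means of 13.54 and 13.57. By the test given below, 6 of 9 hepatocyte markers were higher in the knockout and none lower. All 8 endothelial markers were lower, as were 6 of 8 macrophage markers, while 1 macrophage marker was higher. Over all genes tested, 7.02% were higher and 6.76% lower. RNA came from whole cultures, so fewer cells of a type and less RNA per cell cannot be told apart.

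Most of the cholesterol genes were higher in the knockout. Of the 27 measured, 16 rose and 2 fell, which leaves 9 without a call (limma, Benjamini-Hochberg adjusted p under 0.05 over all genes tested), where 7.02% of all genes tested rose and 6.76% fell. The 16 risers made up 10 of 16 synthesis enzymes, 3 of 4 SREBP2 control genes, the sterol carrier Stard4 and the transporters Abcg5 and Abcg8, and the fallers were Abca1 and Mylip. For 19 of the 27 every knockout array lay above every wild type array, against 9.13% of all genes tested, and for 3 every knockout array lay below, against 11.1%. As the list was chosen with earlier results of these data known, these counts describe it and were not tested against those shares. The median change of the 27 was 0.38, beside -0.02 over all genes tested, and their changes ran from -0.63 to 0.85. None of them reached a doubling, the largest rise being 1.81-fold.

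**Figure D1:**
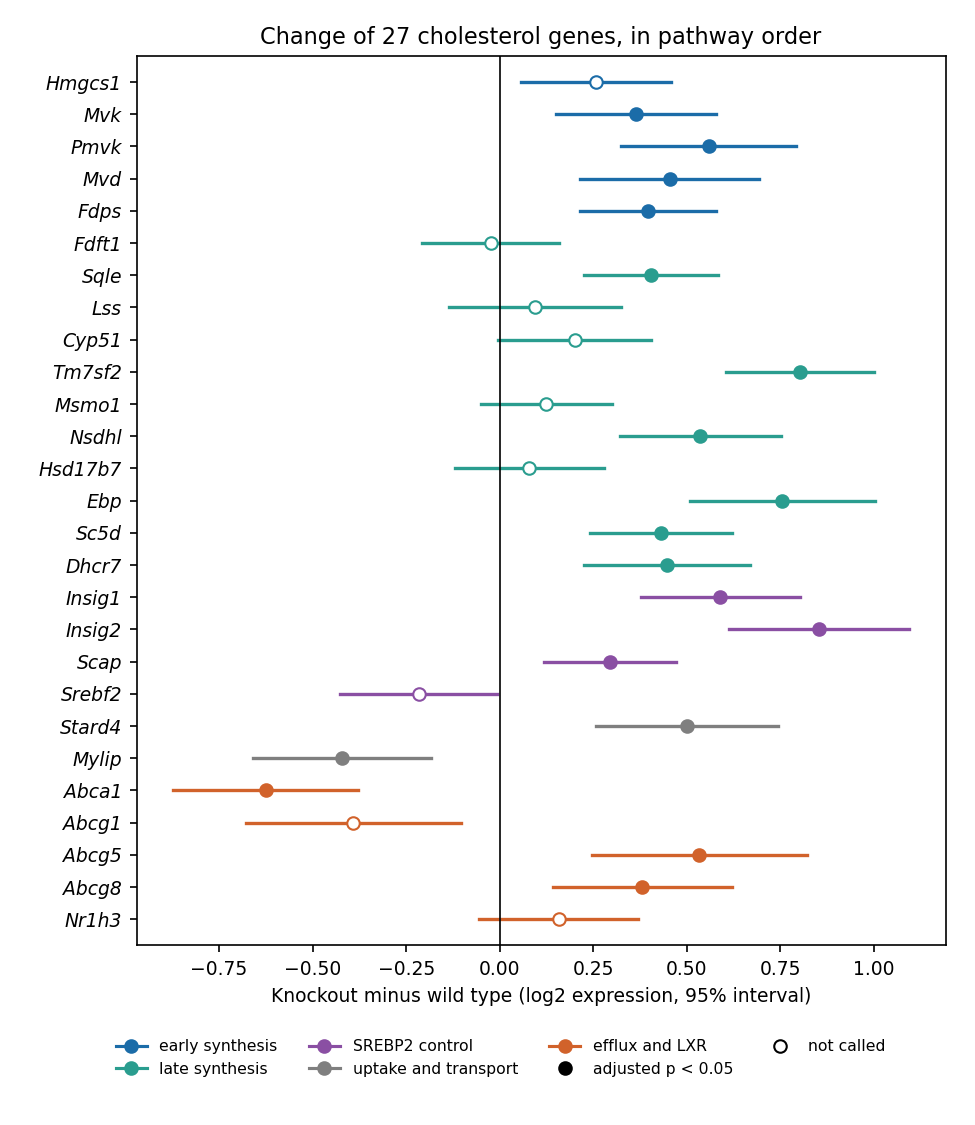
Change of each measured gene (x axis, knockout minus wild type, log2 expression) with its 95% interval from limma, in pathway order from top to bottom. Filled points passed an adjusted p of 0.05; synthesis genes lie mostly between 0.2 and 0.8, Insig2 is highest at 0.85 and Abca1 lowest at -0.63.

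The early part of synthesis, from acetyl-CoA to farnesyl diphosphate, was measured by 5 genes, of which 4 rose and none fell, with a median change of 0.40. Pmvk, which encodes phosphomevalonate kinase, rose most. Its wild type arrays read 7.06, 7.14, 7.07 and 7.18 and its knockout arrays 7.55, 7.75, 7.90 and 7.48. The groups did not overlap, the lowest knockout array lying 0.30 above the highest wild type array. The change was 0.56 (SE 0.11, 1.47-fold, adjusted p = 0.00503). Fdps, the synthase of farnesyl diphosphate, read 9.66, 9.64, 9.74 and 9.75 in wild type and 10.06, 10.01, 10.20 and 10.10 in knockout cells, a rise of 0.40 (SE 0.08, adjusted p = 0.00843). Mvd, which removes the carboxyl group to yield the isoprene unit, went from 5.63 to 6.05 in wild type to 6.12 to 6.36 in knockout cells. It rose by 0.45 (SE 0.11, adjusted p = 0.0173). Without wild type replicate 2 the change was 0.39 and the adjusted p 0.0511, and without knockout replicate 2 they were 0.43 and 0.0536, so that the call was lost but not the direction. Mvk, mevalonate kinase, lay at 5.50 to 5.87 in wild type and at 6.04 to 6.13 in knockout cells. It rose by 0.36 (SE 0.10, adjusted p = 0.0295), but when wild type replicate 1 or 4 was left out, or knockout replicate 1, 2 or 3, the adjusted p was 0.0631 to 0.0809.

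Hmgcs1, the cytosolic synthase at the entrance of the pathway, did not pass the test, although its groups did not overlap. Wild type arrays read 10.10, 10.04, 10.22 and 10.22 and knockout arrays 10.33, 10.55, 10.40 and 10.33. The change was 0.26 with a 95% interval of 0.06 to 0.46 (adjusted p = 0.0891). The gene is shown by its promoter because it is a textbook SREBP2 target and, of the 33 windows found, the 1 that holds the sterol regulatory element TCACNCCAC in full. RefSeq promoter windows of 300 bases, from 250 before to 50 after a transcription start, were found for 25 of the 30 genes in the mouse build GRCm38.p6. In each window below, written 5′ to 3′ along the gene, capitals mark that element and the CCAAT box, which reads ATTGG when it lies on the other strand. The Hmgcs1 window lies at chr13:119690101-119690400 on the plus strand, with the element starting 137 bases before the start.

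Hmgcs1: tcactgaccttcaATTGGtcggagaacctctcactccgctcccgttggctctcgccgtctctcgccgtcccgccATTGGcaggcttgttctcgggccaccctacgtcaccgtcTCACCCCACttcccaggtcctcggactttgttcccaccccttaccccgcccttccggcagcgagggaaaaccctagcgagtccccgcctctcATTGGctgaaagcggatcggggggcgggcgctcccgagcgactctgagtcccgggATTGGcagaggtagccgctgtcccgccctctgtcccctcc

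The late part, from farnesyl diphosphate to cholesterol, had 11 measured genes, of which 6 rose while the other 5 missed the threshold, none having fallen. The median change was 0.40, as in the early part, but the single enzymes were spread from -0.02 to 0.80. The difference between the 2 parts was not tested.

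Fdft1, squalene synthase, is the step that commits farnesyl diphosphate to sterols, and its values overlapped fully. They were 9.79, 9.74, 9.79 and 9.82 in wild type and 9.64, 9.84, 9.79 and 9.78 in knockout cells, a change of -0.02 with a 95% interval of -0.21 to 0.16. The enzyme after it, squalene epoxidase, is a slow step of the pathway, and its gene Sqle rose. Wild type arrays read 9.57, 9.48, 9.63 and 9.50 and knockout arrays 10.01, 9.91, 9.93 and 9.95, a change of 0.40 (SE 0.08, adjusted p = 0.00688). The lowest knockout array of Sqle thus stood 0.28 above the highest wild type array. Lss, which closes the ring to lanosterol, had a change of 0.09 (95% interval -0.14 to 0.32) with overlapping groups. Cyp51, the demethylase of lanosterol, had one of 0.20 (-0.01 to 0.41, adjusted p = 0.198).

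The largest rises among the synthesis enzymes were those of Tm7sf2 and Ebp. Tm7sf2 encodes a reductase of the sterol ring, an activity it shares with the lamin B receptor. Its wild type arrays read 7.41, 7.27, 7.24 and 7.23 and its knockout arrays 8.14, 7.95, 8.08 and 8.19. The rise was 0.80 (SE 0.09, adjusted p = 1.61e-04), or 1.75-fold, and the groups lay far apart compared with their SDs of 0.08 and 0.10. Lbr, the gene of the lamin B receptor, had a change of 0.02 (SE 0.12). Ebp, an isomerase that shifts a double bond of the sterol ring, read 7.68, 7.48, 7.41 and 7.26 in wild type and 8.42, 8.20, 8.10 and 8.13 in knockout cells. The rise was 0.76 (SE 0.11, adjusted p = 0.00113), or 1.69-fold. The promoter windows of both genes are shown for these rises, that of Tm7sf2 at chr19:6067801-6068100 and that of Ebp at chrX:8193463-8193762, both on the minus strand.

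Tm7sf2: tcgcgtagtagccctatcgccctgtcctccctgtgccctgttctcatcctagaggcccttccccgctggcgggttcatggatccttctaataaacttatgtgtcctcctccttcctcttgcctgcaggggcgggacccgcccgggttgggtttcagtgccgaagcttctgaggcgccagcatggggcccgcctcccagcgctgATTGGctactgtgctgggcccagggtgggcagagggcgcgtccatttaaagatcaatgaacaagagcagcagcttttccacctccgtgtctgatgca
Ebp: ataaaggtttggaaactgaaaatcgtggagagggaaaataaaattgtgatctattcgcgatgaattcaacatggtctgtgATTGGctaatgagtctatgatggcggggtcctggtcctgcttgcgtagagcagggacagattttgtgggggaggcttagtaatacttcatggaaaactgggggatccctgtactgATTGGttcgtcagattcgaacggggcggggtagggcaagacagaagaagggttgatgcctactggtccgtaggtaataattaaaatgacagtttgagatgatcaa

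The nearest CCAAT box before the start begins at 47 bases in Tm7sf2 and at 55 bases in Ebp, and both windows lack the full sterol regulatory element.

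Msmo1, Nsdhl and Hsd17b7 encode the oxidase, the decarboxylating dehydrogenase and the keto reductase that together strip the methyl groups next to the sterol's hydroxyl group. Of these 3 only Nsdhl passed the test. Its wild type arrays read 8.56, 8.57, 8.56 and 8.69 and its knockout arrays 9.28, 9.16, 9.18 and 8.91, a rise of 0.54 (SE 0.10, adjusted p = 0.00395). Msmo1 had a change of 0.13 (95% interval -0.05 to 0.30) and Hsd17b7 one of 0.08 (-0.12 to 0.28). The upper bounds of both lie under the lower bound of Nsdhl at 0.32, but the differences between the genes were not tested. Sc5d, which introduces a double bond late in the pathway, rose from 9.57 to 9.79 in wild type to 10.09 to 10.21 in knockout cells, by 0.43 (SE 0.09, adjusted p = 0.00672). Dhcr7, the reductase that makes cholesterol from its last precursor, rose from 7.29 to 7.55 to 7.69 to 7.98, by 0.45 (SE 0.10, adjusted p = 0.0133).

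**Figure D2:**
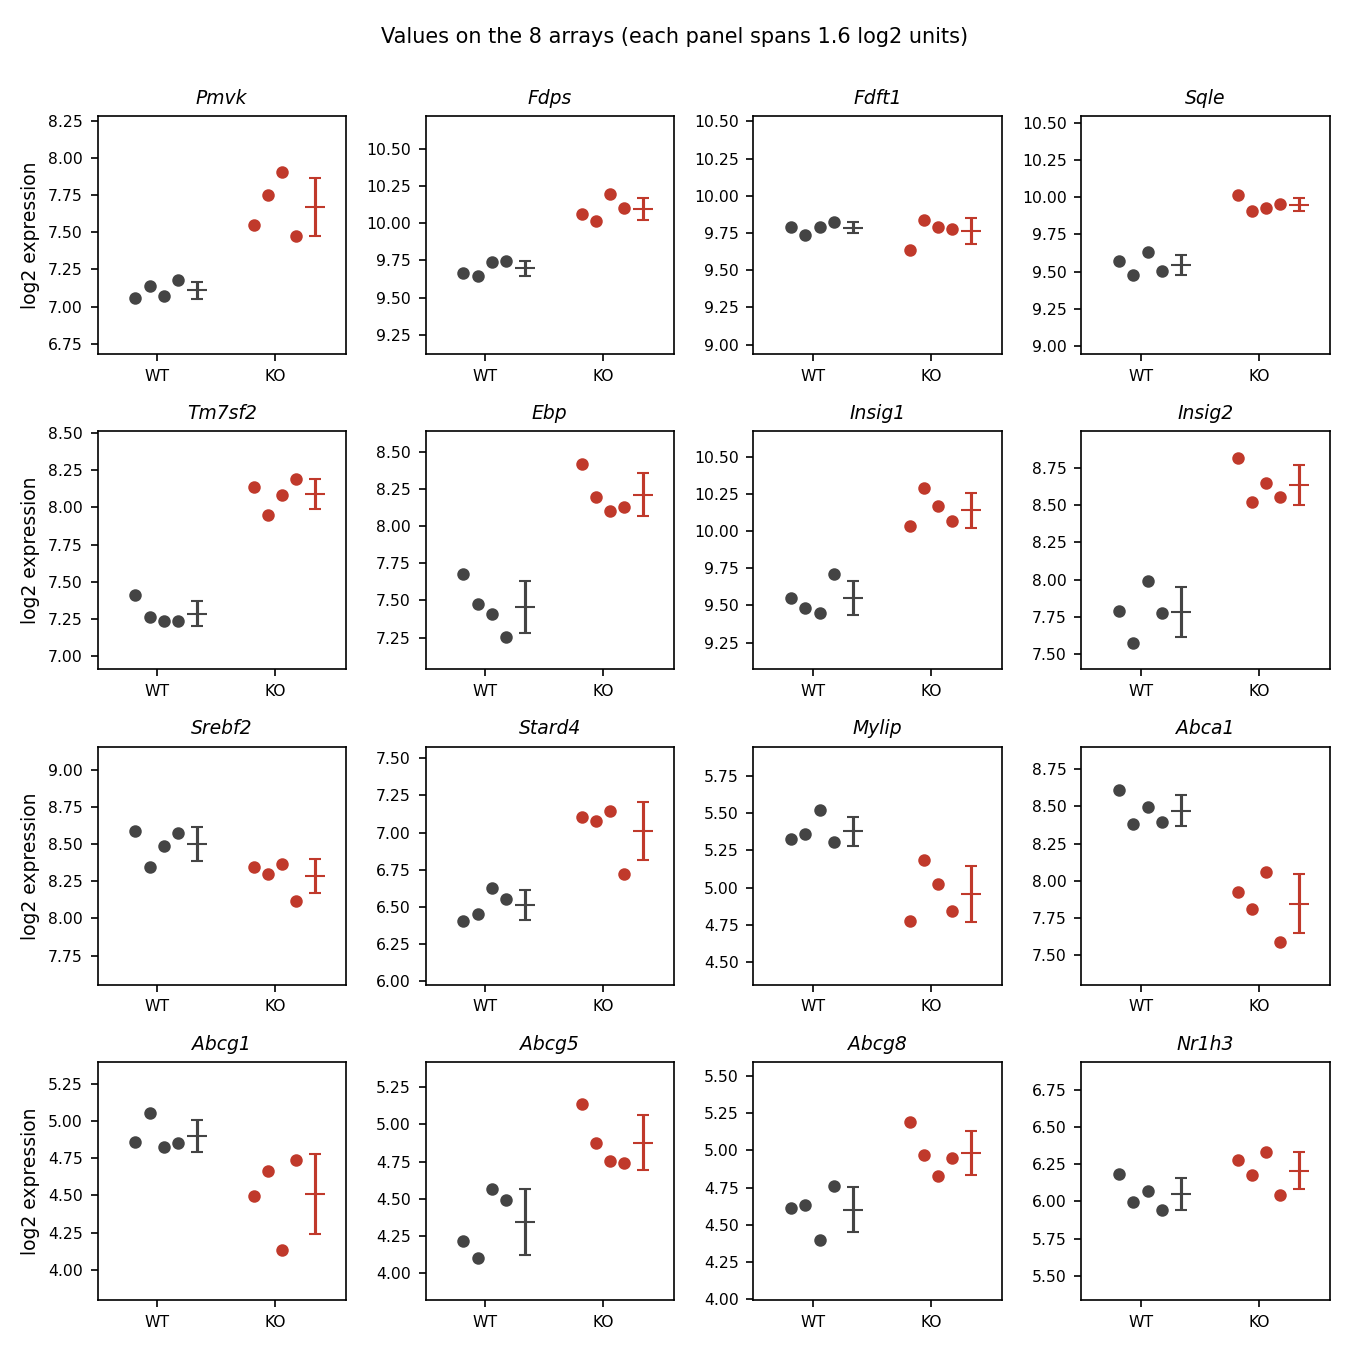
Log2 expression (y axis) of 16 cholesterol genes on each wild type (WT) and knockout (KO) array, with the mean and SD of the 4 arrays beside the points. The groups overlap for Fdft1, Srebf2 and Nr1h3; knockout arrays are all lower for Mylip, Abca1 and Abcg1 and all higher for the other 10.

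The SREBP2 control genes moved unequally: both INSIG genes and Scap rose, and Srebf2 did not pass the test. Insig2, whose liver transcript is known to be repressed by insulin, had the largest change of the 27 genes. Its wild type arrays read 7.79, 7.58, 7.99 and 7.77 and its knockout arrays 8.82, 8.52, 8.65 and 8.56, a rise of 0.85 (SE 0.11, 1.81-fold, adjusted p = 4.13e-04). Insig1, which is itself a target of SREBP2, read 9.55, 9.48, 9.45 and 9.71 in wild type and 10.03, 10.29, 10.17 and 10.07 in knockout cells. It rose by 0.59 (SE 0.10, adjusted p = 0.00203). The 95% intervals of the changes of Insig1 (0.38 to 0.80) and Insig2 (0.61 to 1.09) overlap. RefSeq gives Insig2 3 windows, and the one farthest upstream, at chr1:121332540-121332839 on the minus strand, is shown because it is the 1 window of this gene with CCAAT boxes.

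Insig2: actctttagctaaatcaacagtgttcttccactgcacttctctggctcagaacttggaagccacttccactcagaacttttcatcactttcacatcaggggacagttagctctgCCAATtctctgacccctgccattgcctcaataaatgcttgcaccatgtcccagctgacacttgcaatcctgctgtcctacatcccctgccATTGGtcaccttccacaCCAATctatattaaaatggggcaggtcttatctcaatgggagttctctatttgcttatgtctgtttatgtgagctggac

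Which of its starts was in use cannot be read from the array row.

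Scap, the escort of SREBP2, read 8.34, 8.39, 8.29 and 8.30 in wild type and 8.71, 8.60, 8.63 and 8.56 in knockout cells. It rose by 0.29 (SE 0.08, adjusted p = 0.0323). This call was lost when any array but knockout replicate 4 was left out (adjusted p = 0.0513 to 0.0987), and a dimmer second row for the gene, at means of 3.69 and 3.68, had a change of -0.01, so that the mean of both rows gave 0.14 (adjusted p = 0.330). Srebf2, the gene of SREBP2, read 8.59, 8.34, 8.49 and 8.58 in wild type and 8.35, 8.30, 8.37 and 8.12 in knockout cells. Its change was -0.22 (95% interval -0.43 to -0.01, adjusted p = 0.174), and wild type replicate 2 lay among the knockout arrays. The array measures the transcript of Srebf2 and not the processing of its protein.

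Stard4, a soluble protein that carries cholesterol between membranes, and Mylip moved in opposite directions. Stard4 read 6.41, 6.45, 6.63 and 6.56 in wild type and 7.10, 7.08, 7.15 and 6.72 in knockout cells, a rise of 0.50 (SE 0.11, adjusted p = 0.0118). Mylip read 5.33, 5.36, 5.52 and 5.31 in wild type and 4.77, 5.19, 5.03 and 4.84 in knockout cells, a fall with a change of -0.42 (SE 0.11, adjusted p = 0.0247). The groups did not overlap for either gene. The Mylip call depended on wild type replicates 1, 2 and 3 and on knockout replicates 1 and 4, with adjusted p-values of 0.0507 to 0.0760 when any of them was left out.

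The efflux genes, most of them LXR targets, divided by transporter. Abca1, which loads cholesterol onto apolipoprotein A-I at the cell surface, fell. Its wild type arrays read 8.61, 8.38, 8.50 and 8.40 and its knockout arrays 7.93, 7.81, 8.06 and 7.59, a change of -0.63 (SE 0.11, 1.54-fold lower, adjusted p = 0.00358). Abcg1, which passes cholesterol on to mature lipoprotein particles, read 4.86, 5.06, 4.83 and 4.85 in wild type and 4.50, 4.66, 4.14 and 4.74 in knockout cells. Its groups did not overlap, but its change of -0.39 (95% interval -0.68 to -0.10) did not pass the test (adjusted p = 0.0725). Without knockout replicate 4 it did (-0.47, adjusted p = 0.0390).

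Abcg5 and Abcg8 encode the partners of a single transporter that secretes sterols into bile, and both rose. Abcg5 read 4.21, 4.10, 4.56 and 4.50 in wild type and 5.14, 4.88, 4.75 and 4.74 in knockout cells, a change of 0.53 (SE 0.13, adjusted p = 0.0193). Abcg8 read 4.61, 4.63, 4.40 and 4.76 in wild type and 5.19, 4.97, 4.83 and 4.95 in knockout cells, a change of 0.38 (SE 0.11, adjusted p = 0.0394). The knockout arrays of both were all above the wild type arrays, by 0.18 at the nearest for Abcg5 and 0.06 for Abcg8. The Abcg5 call was lost when wild type replicate 1 or 2, or knockout replicate 1, was left out (adjusted p = 0.0557 to 0.0625), and the Abcg8 call without any single array except wild type replicate 4 and knockout replicate 3 (0.0547 to 0.114). Nr1h3, the gene of the receptor LXR alpha, had a change of 0.16 (95% interval -0.05 to 0.37) with overlapping groups. The other LXR gene, Nr1h2, was not measured.

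The promoters of the fallen and the risen transporters are shown side by side. The Abca1 window lies at chr4:53159846-53160145 on the minus strand. Abcg5 and Abcg8 stand head to head on chromosome 17 with starts 110 bases apart, so that their windows share 209 bases. The Abcg8 window at chr17:84682871-84683170 on the plus strand covers the stretch between both starts.

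Abca1: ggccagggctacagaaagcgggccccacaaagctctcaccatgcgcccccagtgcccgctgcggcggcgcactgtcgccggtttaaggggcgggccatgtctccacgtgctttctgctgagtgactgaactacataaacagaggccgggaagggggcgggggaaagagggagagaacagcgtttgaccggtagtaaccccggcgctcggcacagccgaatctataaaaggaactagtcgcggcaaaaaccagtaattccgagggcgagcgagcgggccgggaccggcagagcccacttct
Abcg8: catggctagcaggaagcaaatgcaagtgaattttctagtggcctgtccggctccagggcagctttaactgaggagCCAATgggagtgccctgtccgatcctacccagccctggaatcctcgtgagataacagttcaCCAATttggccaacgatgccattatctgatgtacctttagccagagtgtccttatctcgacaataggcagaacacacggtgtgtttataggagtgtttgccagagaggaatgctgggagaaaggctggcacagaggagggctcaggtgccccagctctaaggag

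Neither window holds the sterol regulatory element, and the Abca1 window holds no CCAAT box. No other motif, such as a site for LXR, was searched for.

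The CCAAT box, the site of the factor NF-Y that is known to act beside SREBP2, was present in 14 of 18 windows of the synthesis genes (77.8%), against 37.4% of all 32851 RefSeq promoter windows. For 13 measured synthesis genes with a window the box did not separate those that rose from those that did not pass the test. Counted by gene, in any of its windows, it was found for 8 of 8 risers and for 5 of 5 others. Among the risers, Pmvk and Dhcr7 also have windows without it. Over all RefSeq genes, counted the same way, 11096 of 27025 held it. Fdps and Sqle, which also rose, had no window. The control genes held it in 3 of 7 windows and the efflux genes in 2 of 7. These 2 efflux windows, of Abcg5 and Abcg8, overlap, and the box counted for Abcg5 is also counted for Abcg8. The full element TCACNCCAC was found in 1.24% of all windows on either strand, and with up to 1 letter changed in 24.2% of all windows and in 13 of the 33 windows of the cholesterol genes. The 13 include 2 overlapping windows of Nr1h3 that hold the same match. A match is a run of letters and not a measured site.

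**Figure D3:**
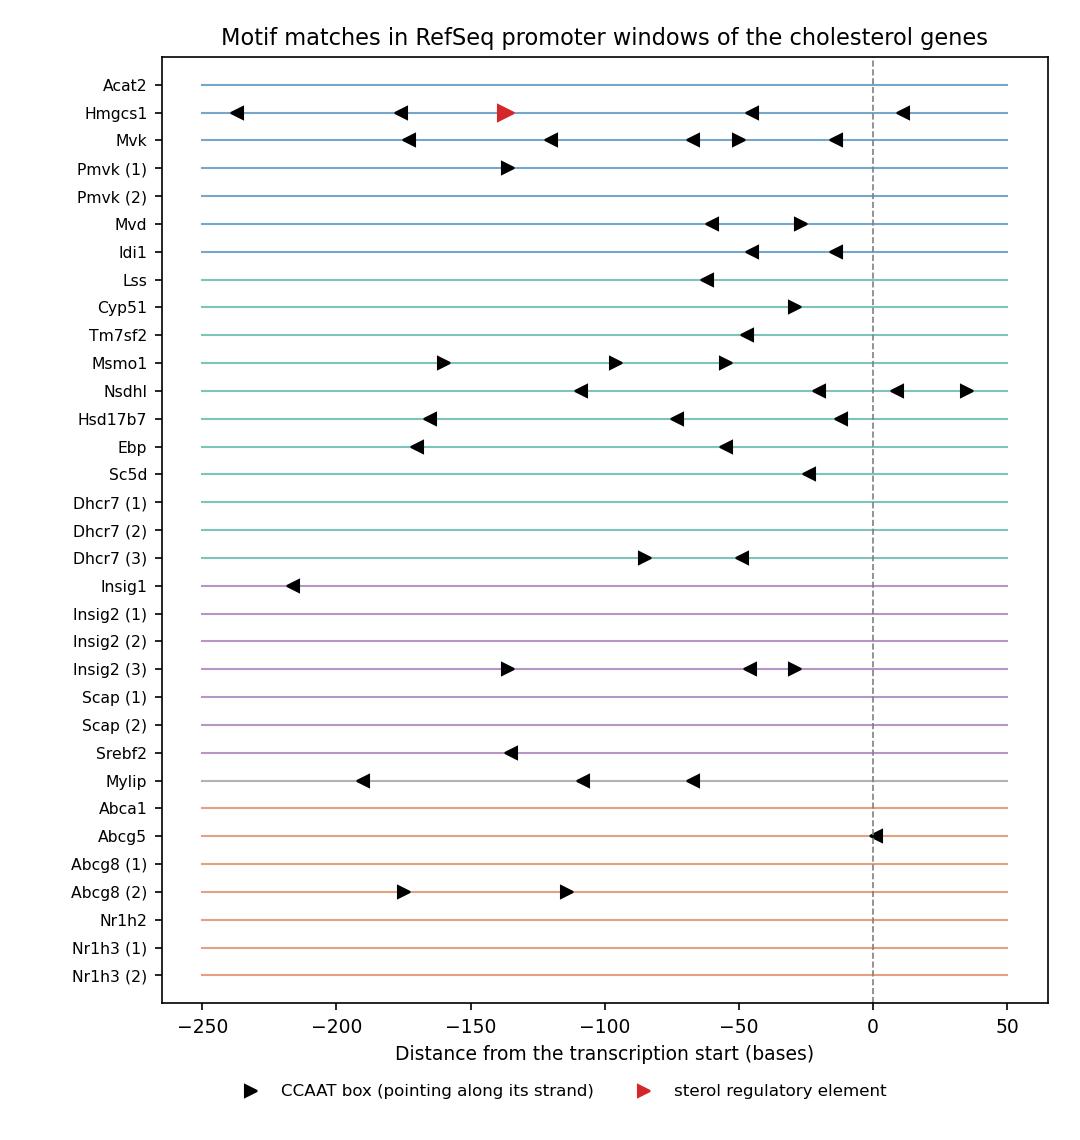
Position of CCAAT boxes (black) and of the sterol regulatory element (red) in the 33 RefSeq windows, as distance in bases from the transcription start (x axis), with triangles pointing along the strand of the match and numbers for genes with several windows. Boxes lie in 14 of 18 synthesis windows and the element in Hmgcs1 alone.

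Across single arrays the synthesis groups kept their order. With each gene centred on its mean over the 8 arrays, the mean of the 5 early genes was -0.24 to -0.16 on wild type and 0.16 to 0.24 on knockout arrays, and that of the 11 late genes -0.23 to -0.14 and 0.09 to 0.24. The lowest knockout value of the early, late and control genes came from knockout replicate 4. The 5 efflux genes had overlapping means, -0.05 to 0.02 on wild type and -0.07 to 0.13 on knockout arrays. In these means the negative changes of Abca1 and Abcg1 offset the positive ones of Abcg5 and Abcg8. The change of Abcg1 did not pass the test, and the calls of Abcg5 and Abcg8 depended on single arrays.

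Markers of the cell types that a liver preparation can hold differed on the same arrays. The mean level of 9 hepatocyte markers was 8.88 to 9.16 on wild type and 9.93 to 10.13 on knockout arrays, with 6 higher and none lower. These markers changed unequally. The metabolic enzyme genes Arg1, Hpd, Fah and Cps1 rose by 2.69, 1.84, 1.33 and 1.32. Alb, Ttr and Ass1 changed by 0.03, 0.19 and 0.12 and did not pass the test. That of 8 endothelial markers was 6.15 to 6.37 and 4.8052 to 5.0015, with 8 of 8 lower. That of 8 macrophage markers was 5.31 to 5.53 and 4.68 to 4.82, with 6 lower and 1 higher, and that of 8 stellate cell markers 5.07 to 5.15 and 4.30 to 4.52, with 4 lower and 1 higher. Of 4 bile duct markers none passed the test. Beside these marker counts, 7.02% of all genes tested rose and 6.76% fell. Array values do not reach 0, so that no marker can be called absent. The share of the cholesterol gene changes that moves with these markers was not tested.

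**Figure D4:**
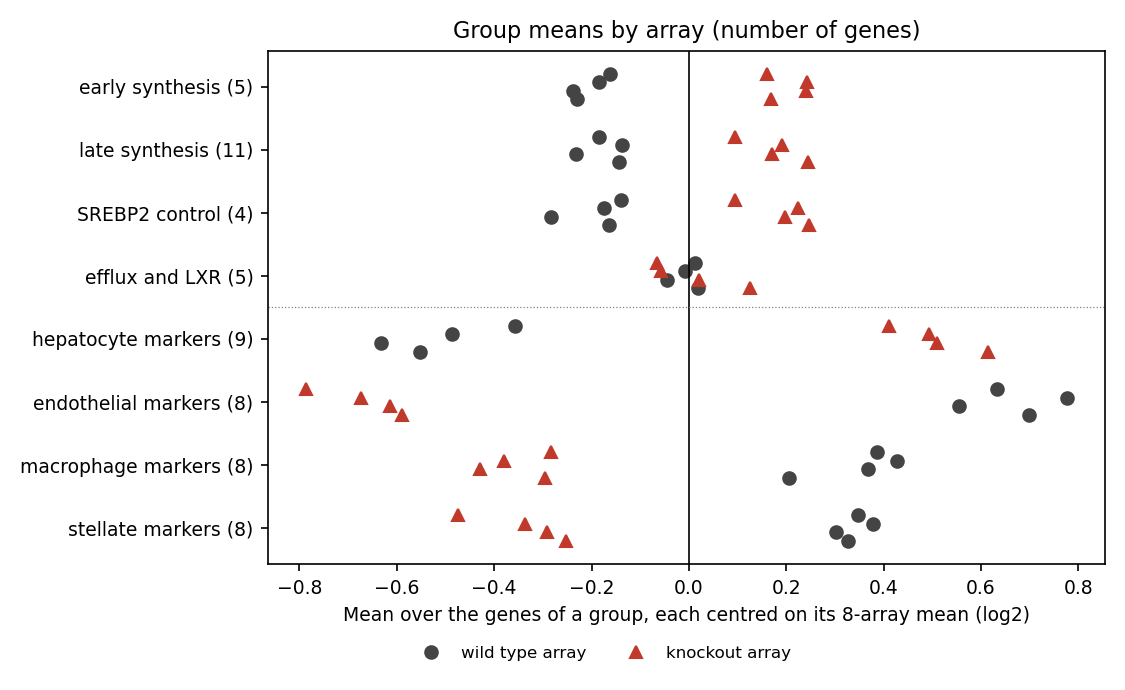
Mean over the genes of each group on each array, every gene being centred on its mean over the 8 arrays (x axis, log2), with the number of genes in brackets. Wild type (circles) and knockout arrays (triangles) stand apart for synthesis, control and the hepatocyte, endothelial, macrophage and stellate markers, and overlap for efflux.

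Of 24 measured genes from a list of 29 other genes of sterol handling, 2 rose and 4 fell, the median change of the 24 being 0.03. Of all genes tested 7.02% rose and 6.76% fell, and with counts this small nothing particular to the list is read from them. Fads2, a fatty acid desaturase that is a target of the SREBP factors, rose by 0.87 (SE 0.11, adjusted p = 3.50e-04), and Stard5, a lipid carrier related to Stard4, by 0.39 (SE 0.11, adjusted p = 0.0412). The Stard5 call was lost when any array but knockout replicate 4 was left out (0.0504 to 0.117). Erlin1 and Erlin2, which encode membrane proteins of the endoplasmic reticulum that bind cholesterol and restrain SREBP activation, fell, with changes of -0.83 (SE 0.11, adjusted p = 3.81e-04) and -0.41 (SE 0.09, adjusted p = 0.0145). Nceh1, a cholesterol ester hydrolase, fell with a change of -0.54 (SE 0.13, adjusted p = 0.0191), a call lost without wild type replicate 2 (0.0521) or 4 (0.0532) and with the mean of its rows (-0.32, adjusted p = 0.0806). Srebf1, the gene of the related factor SREBP1 and an LXR target, had a change of 0.03 (95% interval -0.18 to 0.24), and Lpcat3, also an LXR target, one of -0.27 (adjusted p = 0.0593).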

How the data were processed

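Total RNA of 8 hepatocyte cultures was labelled with biotin and hybridised to Affymetrix arrays. Values are log2 expression in 41345 rows, made by the authors with RMA through the oligo package, per the submitters' processing notes (version not given in the sources used here). Normalization between arrays can remove a change shared by all genes, and its values compress changes of dim ones. Of the rows, 23521 had 1 gene symbol in the platform annotation and were used; 1814 with several symbols and 16010 with none were not. Genes were tested if their mean exceeded the 40th percentile of row means (3.32). The test was that of limma 3.58.1 under R 4.3.3 (eBayes without trend; two-sided; Benjamini-Hochberg over 15380 genes; threshold 0.05), and the procedure was tested on simulated data. SEs and 95% intervals are limma's moderated ones. Arrays have no read depth, and 4 per group limit the precision. All measured members are named, and of the other sterol genes the 3 of smallest p called in each direction; Lbr, Srebf1, Lpcat3, Alb, Cdkn2a and Mmab were named outside that rule. The members and lists were chosen with earlier results of these data known. Alternatives changed the filter, the rows of a gene, normalization, variance model, array weights, a replicate block, the threshold and the arrays used. Promoter windows come from RefSeq (GRCm38.p6), searched on both strands in Python 3.11.15.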

Additional observations from a re-analysis of the deposited data

Results flagged for a closer look

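Within a group, 3 of 54 sets of 4 arrays held an array far from the others, its gap to the nearest, as a share of the whole range, exceeding Dixon's 95% critical value. Chance flags about 1 in 20 such sets. Nsdhl on wild type replicate 4 read 8.69 against 8.56 to 8.57 on the other wild type arrays. Stard4 on knockout replicate 4 read 6.72 against 7.08 to 7.15. Abcg1 on wild type replicate 2 read 5.06 against 4.83 to 4.86.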

How the results depend on the processing

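Over 18 alternatives, 10 of the 18 calls held in each, and the other 8 were lost under at least 1. Hmgcs1 and Abcg1 gained a call under some, Hmgcs1 with cyclic loess, an intensity trend (robust or not) or array weights. No called gene changed direction; Fdft1, not called, ranged from -0.0495 to 0.0177 when an array was left out, the positive value without knockout replicate 1. The count of risers was 12 to 17 at a threshold of 0.05 and 9 at 0.01. Fallers numbered 1 to 2 when an array was left out, 3 with the 60th percentile filter and with array weights, where Abcg1 was added, and 1 at 0.01. The Scap row rule moved the median of the control genes from 0.44 to 0.37. With the replicate number as a block 15 rose and 2 fell, and Scap lost its call (adjusted p = 0.0536). Same-numbered arrays correlated at 0.02 to 0.26 in their deviations, under 0.1 for 2 of 4 numbers, so the numbers were not taken to pair samples, and only replicates 3 and 4 correlated best with their own number. Over all genes tested, 654 fell without wild type replicate 1, against 1039. Of the other sterol genes, set against the same alternatives after the data were seen, 1 rose with no filter, 4 with the 60th percentile filter, with median centring, with an intensity trend, robust or not, and with array weights, 5 with cyclic loess, 1 to 4 without 1 array and 1 at 0.01. The fallers were 5 with cyclic loess, with an intensity trend, robust or not, and with array weights. They were 3 with no filter, with the mean of the rows of a gene and with the replicate block. Without 1 array they were 2 to 4, and at 0.01 there was 1. The precision is limited by 4 arrays a group.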

Other observations

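The promoter window of Mvk, looked at after the motif search, held 5 CCAAT boxes. It is among the 0.271% of RefSeq windows that hold 5 or more. Of the Mvk boxes 4 read ATTGG and begin 173, 120, 67 and 14 bases before the start, which is every 53 bases. The stretches from box to box match at 26.4% to 32.1% of their bases. Among 32851 windows 12 held 4 boxes on 1 strand at an equal spacing of 10 bases or more. Overlapping windows count separately here, and the Mmab window described below covers the same 4 boxes. The window lies at chr5:114444019-114444318 on the plus strand, with the boxes in capitals.

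Mvk: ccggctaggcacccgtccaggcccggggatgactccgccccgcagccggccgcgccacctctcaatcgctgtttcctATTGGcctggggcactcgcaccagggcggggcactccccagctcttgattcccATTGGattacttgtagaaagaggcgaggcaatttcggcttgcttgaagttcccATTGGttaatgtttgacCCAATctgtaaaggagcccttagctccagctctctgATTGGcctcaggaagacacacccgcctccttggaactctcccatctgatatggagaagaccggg

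Mmab, a gene of cobalamin metabolism, stands head to head with Mvk, and their windows share 259 bases. Mmab read 5.64, 5.96, 5.94 and 5.87 in wild type and 6.20, 6.24, 5.91 and 5.99 in knockout cells. Its change of 0.23 (95% interval -0.01 to 0.48, limma adjusted p = 0.205) did not pass the test, beside the rise of 0.36 for Mvk.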
